A study of Saccharomyces cerevisiae with 6 samples.

Results

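The genes described here are 30 yeast genes of the general stress response and of trehalose and glycogen metabolism, chosen by name from the platform's gene symbols among 6470 genes or unnamed features. Each of the 30 is represented by 1 feature of the array. The genes fall into 5 roles, namely trehalose (5 genes), glycogen (6 genes), hexose phosphates and related sugar metabolism (7 genes), small stress and cell wall proteins (7 genes) and other stress genes (5 genes). In budding yeast, Msn2 and Msn4 are zinc finger transcription factors that enter the nucleus when cells are stressed or starved and activate a broad set of protective genes. Protein kinase A (PKA), which is active when sugar is plentiful, keeps both factors out of the nucleus. Trehalose and glycogen are the reserve carbohydrates of the cell, and many genes for their synthesis and breakdown belong to the Msn2/Msn4 targets.

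Saccharomyces cerevisiae, of a strain not given in the sources used here, was grown anaerobically to exponential phase in bottles of nitrogen-purged synthetic complete medium. Ergosterol, unsaturated fatty acids and amino acids were supplied, and sodium dithionite removed traces of oxygen. Cells were then aerated for 5, 10, 20, 60 or 120 min, with 1 sample per time from a separate flask, and each RNA was hybridised on 2-colour arrays against a pool of the anaerobic RNA taken before aeration (0 min). A sixth sample is the pool against itself, so growth without oxygen and the supplements are shared by all groups. Groups follow the titles and channel names, with which 2 label fields disagree: a 20 min aeration is given for RNA extraction at 60 min, and a self-hybridisation is described for 5 min. Ratios are of whole-culture RNA, so fewer cells with a transcript and less RNA per cell cannot be told apart.

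Every value below is a log2 ratio in which a positive number means more RNA after aeration, converted from natural logs. The log base was inferred from the lowest deposited value, -4.6051702, which is the natural log of 0.01, and each log2 value would be smaller by a factor of 0.6931 if the deposited values were already log2. The direction, taken from the titles, is likely but not settled. By the labels the aerated RNA was channel 2 at 5 and 10 min but channel 1 from 20 min on. Each aerated value condenses a dye-swap pair, so both dye orientations enter at every time. Correlations between the aerated samples over genes, which share the pool and are not independent replicates, lay between 0.025 and 0.646, with none below 0. That of the 10 and 20 min samples, on either side of the change of channel, was 0.646. The 60 min sample stood apart, with 24.3% of its genes at least 2-fold from the pool against 2.09% to 4.96% at the other times. In the pool against itself the share was 4.00%, but only 3521 genes had a value there, against 5883 to 6292 in the aerated samples. Counts at 60 min are therefore also given after each sample was centred and scaled to the same spread. With 1 sample per time, a value at a single time has no error and no test.

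The reserve carbohydrate and stress genes lay above the anaerobic pool at 5 min, below it at 20 and 60 min, and around it at 120 min. In order of time, their median log2 ratios were 0.31, 0.15, -0.54, -0.84 and -0.06, against all-gene medians between -0.013 and 0.091. At 5 min 25 of 29 measured genes were above 0, and at 20 min 28 of 30 were below 0, the exceptions being HSP12 and HSP26. At 60 min 25 of 29 were below 0, and at 120 min 15 of 29. Among all genes, the shares below 0 were 49.9%, 50.0%, 50.2%, 45.6% and 51.4% from 5 to 120 min. In the pool against itself, 22 of the 30 genes had a value, with a median of 0.14 and 10 below 0. After centring and scaling to the same spread, the medians of the 30 genes were 0.40, 0.14, -0.54, -0.39 and -0.04. Scaling cannot turn a sign and the centring shifts were small, so this is no check of the directions.

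**Figure D1:**
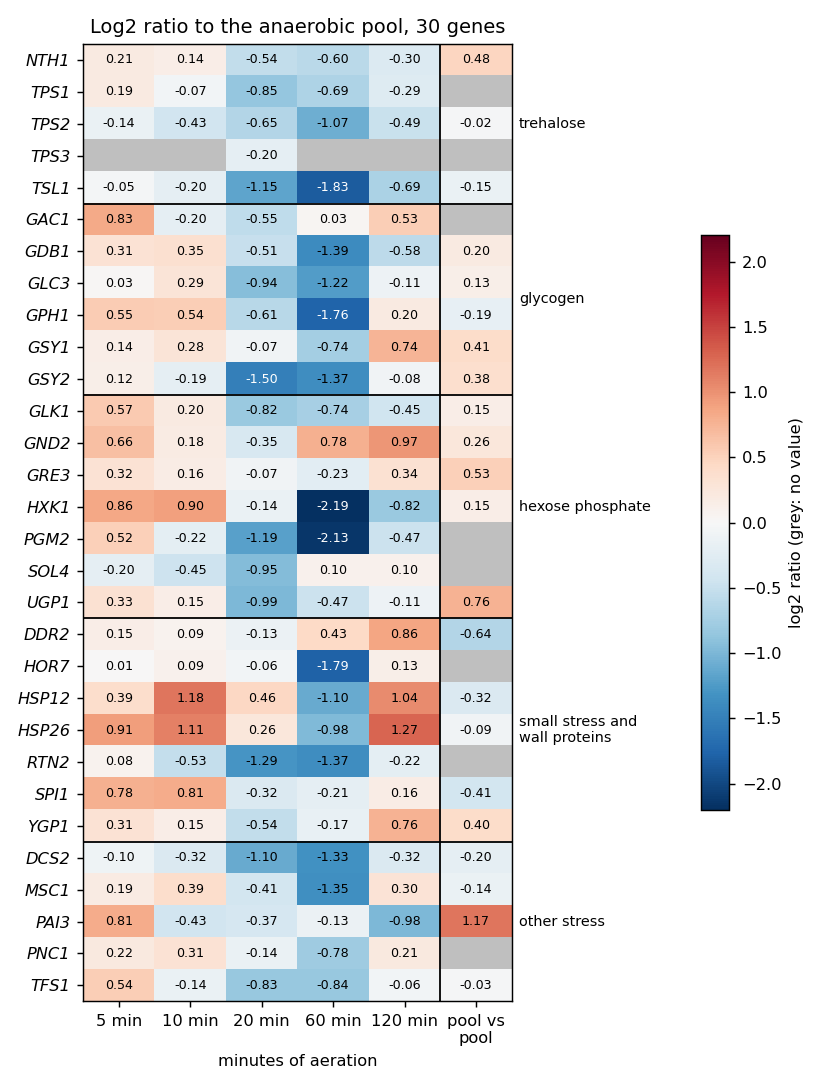
Log2 ratio to the anaerobic pool (colour, with the value printed) of the 30 genes (rows, by role) at 5 aeration times and in the pool against itself (columns, 1 sample each, no error). The 20 and 60 min columns are mostly below 0, and TPS3 has a value at 20 min alone.

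At 20 min 0 of the 30 genes were at least 2-fold higher than the pool, while 2.24% of all genes were, and 5 were at least 2-fold lower, against 2.5% of all genes. Those 5 were GSY2, RTN2, PGM2, TSL1 and DCS2. At 60 min 13 of 29 were at least 2-fold lower and 0 higher, against 12.9% and 11.4% of all genes, but after scaling to equal spread 0 were at least 2-fold lower. The share of all genes after scaling was not computed. At 5 min 0 were 2-fold away in either direction, as were 1.08% (higher) and 1.01% (lower) of all genes. At 10 min HSP12 and HSP26 were at least 2-fold higher (2.2% of all genes) and 0 genes lower (2.76%). At 120 min the same 2 genes were at least 2-fold higher (1.47%) and 0 lower (1.72%). In the pool against itself, 1.02% of the 3521 genes with a value there were 2-fold higher and 2.98% lower. Of the 30 only PAI3 was past that fold, at 1.17.

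Ranks within a sample do not depend on its scale. At 20 min 17 of the 30 genes were in the lowest 10% of all genes and 0 in the highest 10%, with a median percentile of 8.45. At 5 min 0 of 29 were in the lowest 10% and 11 in the highest, and the median percentile was 86.6. The median percentile was 66.2 at 10 min and 16.0 at 60 min, when 11 of 29 were in the lowest 10%. At 120 min it was 44.8, with 6 genes in the lowest and 7 in the highest 10%, so the 30 genes were spread widely at that time.

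**Figure D2:**
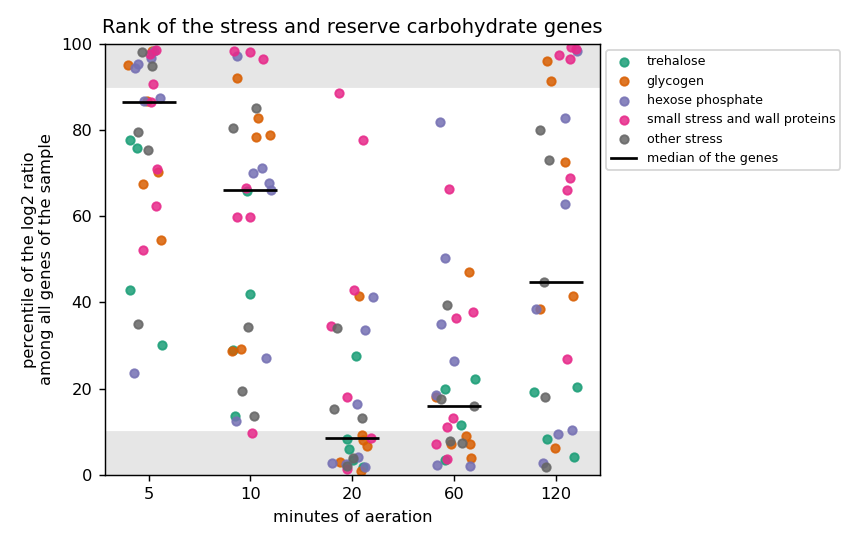
Percentile of each gene's log2 ratio among all genes measured in the same sample (y axis) by minutes of aeration (x axis), coloured by role, with the median as a black bar and the lowest and highest 10% shaded. The points gather in the lowest 10% at 20 min (17 of 30) and spread over the whole range at 120 min.

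In the difference between 2 aerated samples the level of the pool cancels, if both ratios have the same direction. The measurement noise of each hybridisation remains. From 10 to 20 min, 28 of 29 genes had a lower value at the later time, with a median difference of -0.77, while 49.5% of all genes did. The exception was PAI3, with a difference of 0.06. From 60 to 120 min, 28 of 29 had a higher value at the later time, with a median difference of 0.93 and PAI3 again the exception at -0.85, while 45.7% of all genes did. The step from 20 to 60 min was mixed, with 18 of 29 lower and 11 higher as deposited and 10 lower and 19 higher after scaling. Over the 29 genes with a value at every time, the lowest value was at 20 min for 10 genes, at 60 min for 18 and at 120 min for 1. After scaling these numbers were 18, 10 and 1. Across all 5771 genes measured at every aerated time, the lowest value was at 20 min for 905 genes and at 60 min for 1907 as deposited. After scaling the all-gene numbers were 1117 and 1536. Each step rests on 1 sample per time and was not tested.

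Trehalose is made in 2 steps by the complex of TPS1, the trehalose-6-phosphate synthase, and TPS2, the phosphatase, with TSL1 and TPS3 as its regulatory subunits. TSL1 had the lowest mean of them, at log2 ratios of -0.05, -0.20, -1.15, -1.83 and -0.69 at 5, 10, 20, 60 and 120 min, the 60 min value being 3.55-fold below the pool as deposited and at -0.81 after scaling. TPS2 was below the pool at every time, at -0.14, -0.43, -0.65, -1.07 and -0.49. TPS1 was at 0.19, -0.07, -0.85, -0.69 and -0.29. The synthase subunits thus lay near the pool at 5 min and below it from 20 min to the last time. TPS3 had a value at 20 min alone, of -0.20, and entered no fit. NTH1, the neutral trehalase, which degrades trehalose, took a similar course, at 0.21, 0.14, -0.54, -0.60 and -0.30. All 4 trehalose genes measured at 120 min were still below the pool then.

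Glycogen is built by the synthases GSY1 and GSY2 and the branching enzyme GLC3. GSY2, known as the major synthase, had the lowest value of the 30 genes at 20 min. It was at 0.12, -0.19, -1.50, -1.37 and -0.08 from 5 to 120 min, so it stood 2.83-fold below the pool at 20 min and close to the pool at 120 min. GSY1, the other synthase, was at 0.14, 0.28, -0.07, -0.74 and 0.74. GLC3 was at 0.03, 0.29, -0.94, -1.22 and -0.11. The 2 synthases thus differed most at 20 min, when GSY1 lay near the pool.

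Glycogen is broken down by the phosphorylase GPH1 and the debranching enzyme GDB1. GPH1 was at 0.55, 0.54, -0.61, -1.76 and 0.20, and GDB1 at 0.31, 0.35, -0.51, -1.39 and -0.58. Both breakdown genes were thus below the pool at 20 and 60 min, as were GSY2 and GLC3. GAC1, which directs the Glc7 phosphatase to glycogen synthase, was at 0.83, -0.20, -0.55, 0.03 and 0.53, low at 20 min and not at 60 min.

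Among genes that supply sugar phosphates, HXK1, a hexokinase isoenzyme known to be repressed by glucose, had the widest range of the 30, of 3.09 on the log2 scale. It was at 0.86, 0.90, -0.14, -2.19 and -0.82, the 60 min value being 4.55-fold below the pool as deposited and at -0.96 after scaling. PGM2, the major phosphoglucomutase, was at 0.52, -0.22, -1.19, -2.13 and -0.47. These 2 genes were the lowest of the 30 at 60 min, and PGM2 was at -0.94 there after scaling.

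GLK1, glucokinase, was at 0.57, 0.20, -0.82, -0.74 and -0.45, and UGP1, which makes the UDP-glucose used for both reserves, at 0.33, 0.15, -0.99, -0.47 and -0.11. Both were lowest at 20 min. SOL4, a 6-phosphogluconolactonase, was at -0.20, -0.45, -0.95, 0.10 and 0.10. GND2, a 6-phosphogluconate dehydrogenase, was at 0.66, 0.18, -0.35, 0.78 and 0.97. These 2 genes of the pentose phosphate pathway were low at 20 min. At 60 and 120 min GND2 was above the pool, while SOL4 was near it, at percentile 50.3 of the 60 min sample. GRE3, an aldose reductase, stayed within -0.23 and 0.34 of the pool, the narrowest range of the 29 genes measured at every time as deposited. In the pool against itself it was at 0.53, outside that range. After scaling GRE3 ran from -0.14 to 0.40, and TPS2 had a narrower range, from -0.66 to -0.18.

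HSP12, a small membrane-associated stress protein, and HSP26, a small heat shock protein, had the 2 highest values of the 30 genes at 10, 20 and 120 min. HSP12 was at 0.39, 1.18, 0.46, -1.10 and 1.04, and HSP26 at 0.91, 1.11, 0.26, -0.98 and 1.27. HSP26 was thus 2.42-fold above the pool at 120 min, and both were below it at 60 min alone. SPI1, a cell wall protein, was at 0.78, 0.81, -0.32, -0.21 and 0.16, and YGP1, a secreted glycoprotein, at 0.31, 0.15, -0.54, -0.17 and 0.76. Both were lowest at 20 min. RTN2, a reticulon-like protein of the endoplasmic reticulum, was at 0.08, -0.53, -1.29, -1.37 and -0.22, close to the course of DCS2.

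DDR2 and HOR7 are paralogous small stress genes. They were within 0.13 of each other at 5, 10 and 20 min and differed by 2.22 at 60 min, when DDR2 was at 0.43 and HOR7 at -1.79. After scaling to the same spread, DDR2 was at 0.15 and HOR7 at -0.79 at 60 min. HOR7 was between -0.06 and 0.13 at all other times, so its low mean rests on the 60 min sample, without which its mean was 0.04. DDR2 was at 0.86 at 120 min, its highest value, and at -0.64 in the pool against itself.

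DCS2, a stress-induced relative of the scavenger decapping enzyme, was at -0.10, -0.32, -1.10, -1.33 and -0.32, below the pool at every time. TFS1, an inhibitor of the vacuolar carboxypeptidase Y, was at 0.54, -0.14, -0.83, -0.84 and -0.06. MSC1 was at 0.19, 0.39, -0.41, -1.35 and 0.30. PNC1, the nicotinamidase, was at 0.22, 0.31, -0.14, -0.78 and 0.21. These 4 genes were lowest at 60 min as deposited, TFS1 by 0.01, while after scaling DCS2 and TFS1 were lowest at 20 min, at -1.12 and -0.84. PAI3, an inhibitor of the vacuolar proteinase A, followed another course, at 0.81, -0.43, -0.37, -0.13 and -0.98, with its lowest value at 120 min. Its value of 1.17 in the pool against itself was larger than any of its aerated values.

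Over the 5 aerated samples, 0 of the 29 fitted genes passed for the mean in limma (adjusted over all genes tested), where 0% of 5771 genes passed. Of the 29, 20 had a mean below 0, with a median of -0.22 against 0.00 (0.003 before rounding) over all genes. At an unadjusted p under 0.05, 4 were lower (6.2% of all genes) and 0 higher (7.9%). The 4 were TSL1 at -0.78 ± 0.26 (SE, n = 5; limma adjusted p = 0.224), RTN2 at -0.67 ± 0.24 (limma adjusted p = 0.25), DCS2 at -0.63 ± 0.21 (limma adjusted p = 0.223) and TPS2 at -0.56 ± 0.16 (limma adjusted p = 0.176). The highest means were those of HSP26 at 0.51 ± 0.32 and GND2 at 0.45 ± 0.21. With array weights, 3 of 29 passed (552 of 5771 genes), of which HSP26 at 0.89 and HSP12 at 0.82 were higher and TPS2 at -0.45 was lower. Without the 60 min sample 15 of 29 means were below 0 and 0 of 29 passed. Changes over time count as spread in this test, and the spread of the pool is left out.

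For the trend, 0 of 29 genes passed in limma, where 0.0173% of all genes did. The median slope was -0.126 (log2 ratio per doubling of the minutes of aeration), with 24 of the 29 below 0. Without the 60 min sample the median slope was -0.042, with 19 of 29 below 0, and without the 120 min sample it was -0.369. At an unadjusted p under 0.05, 2 genes had a negative slope (1.59% of all genes) and 0 a positive one (1.2%). These were HXK1 at -0.57 ± 0.17 and GDB1 at -0.30 ± 0.12 (SE, n = 5; limma adjusted p = 0.936 for each). The slope of HXK1 was the 14th lowest of 5771.

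For the late (60 and 120 min) minus early (5 and 10 min) difference, 0 of 29 genes passed in limma, where 0% of all genes did. The median difference was -0.65 against 0.02 over all genes, and 25 of 29 were below 0. It was -0.11 without the 60 min sample, with 17 of 29 below 0, and -1.04 without the 120 min sample. At an unadjusted p under 0.05, 3 genes were lower late (2.18% of all genes) and 0 higher (1.42%). These were HXK1 at -2.38 ± 0.51, GDB1 at -1.31 ± 0.40 and GLK1 at -0.97 ± 0.35 (SE, 2 samples in each phase; limma adjusted p = 0.788 for each). Without the 120 min sample, when the 60 min sample alone stands for the late phase and is assumed to vary like the others, 13 of 29 passed, as did 19.0% of all genes.

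**Figure D3:**
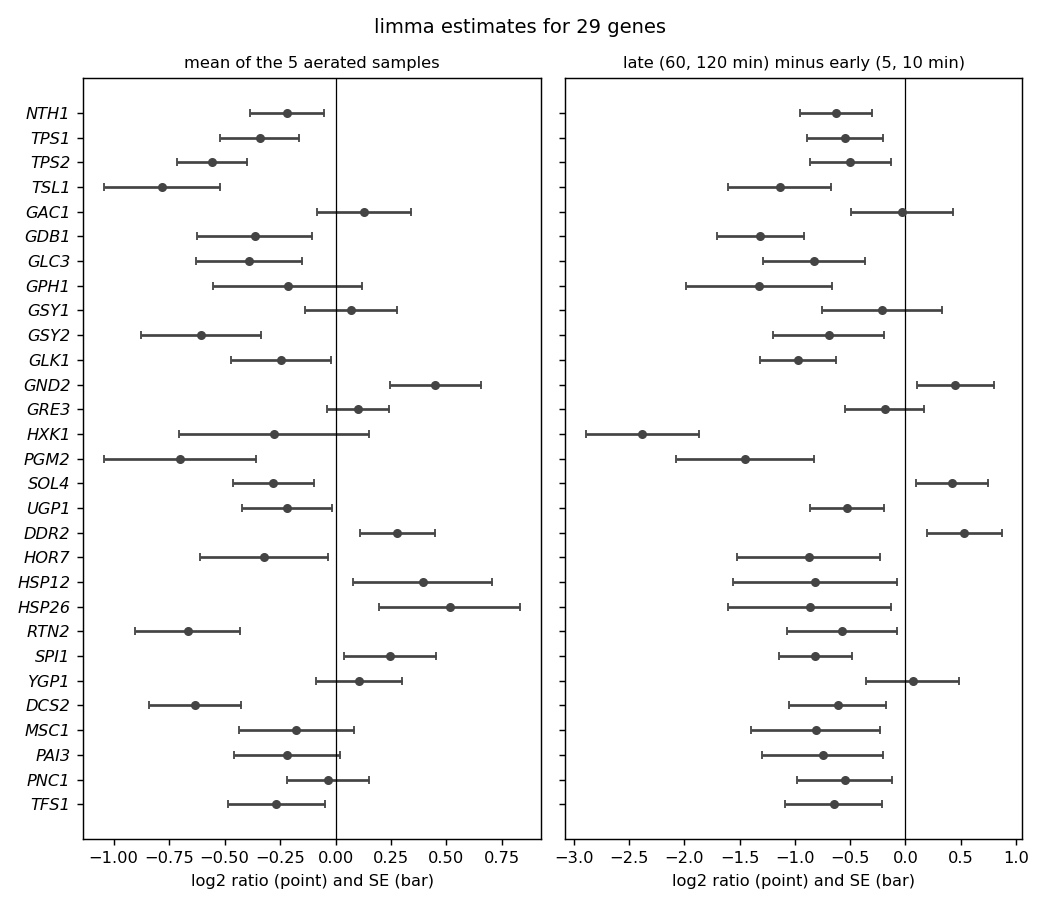
Estimates (points) and standard errors (bars) of limma's fit for the 29 genes measured at all 5 aerated times, as the mean over the samples (left) and the late minus early difference (right), on the log2 scale. In the right panel 25 of 29 points are left of 0, HXK1 the farthest at -2.38, and 0 passed after adjustment over all genes.

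Paralogs of these genes, encoding related proteins, took different courses in several pairs, which were compared as differences in log2 ratio within a sample and not tested. PGM1, the minor phosphoglucomutase, stayed between -0.27 and 0.19, so PGM2 minus PGM1 was -1.14 at 20 min and -2.33 at 60 min. RTN1, the other reticulon, was at 0.20 and 0.44 at 20 and 60 min, where RTN2 minus RTN1 was -1.50 and -1.81. HXK2, the main hexokinase during growth on glucose, stayed between -0.10 and 0.18 up to 60 min and was at -1.10 at 120 min. HXK1 minus HXK2 was thus 0.69 and 0.72 at 5 and 10 min and -2.09 at 60 min. These differences are as deposited, and the 60 min sample had the widest spread. After scaling, PGM2, RTN2 and HXK1 were at -0.94, -0.62 and -0.96 at 60 min. At 20 min they were then at -1.21, -1.31 and -0.14, so PGM2 and RTN2 were lower at 20 min. GND1, the major 6-phosphogluconate dehydrogenase, was between 0.48 and 0.58 at every time, while GND2 ranged from -0.35 to 0.97.

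Other pairs kept 1 order at all 5 times. GSY1 was above GSY2, by 0.68 ± 0.52 (SD over the 5 times), and SPI1 above SED1, also a cell wall protein gene, by 0.35 ± 0.22. DCS2 was below DCS1, the difference being -0.38 ± 0.21, and NTH1 below NTH2, a second trehalase gene, the difference being -0.27 ± 0.20 and -0.00 at 5 min. HSP26 was above HSP42, the other small heat shock protein gene considered, by 0.98 ± 0.26. In the pool against itself these differences were -0.87 for HSP26 minus HSP42, -0.49 for SPI1 minus SED1, 0.55 for NTH1 minus NTH2, 0.03 for GSY1 minus GSY2 and -0.76 for DCS2 minus DCS1. All but the differences of GSY1 and DCS2 thus had the other sign there, and that of DCS2 was larger than its mean under aeration. YGP1 differed from SPS100 by between -1.16 and 0.41, TFS1 from YLR179C by between -1.10 and 0.76, GAC1 from PIG1 by between -0.60 and 1.46, and SOL4 from SOL3 by between -0.71 and 0.14. Whether features of a pair share signal was not tested.

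**Figure D4:**
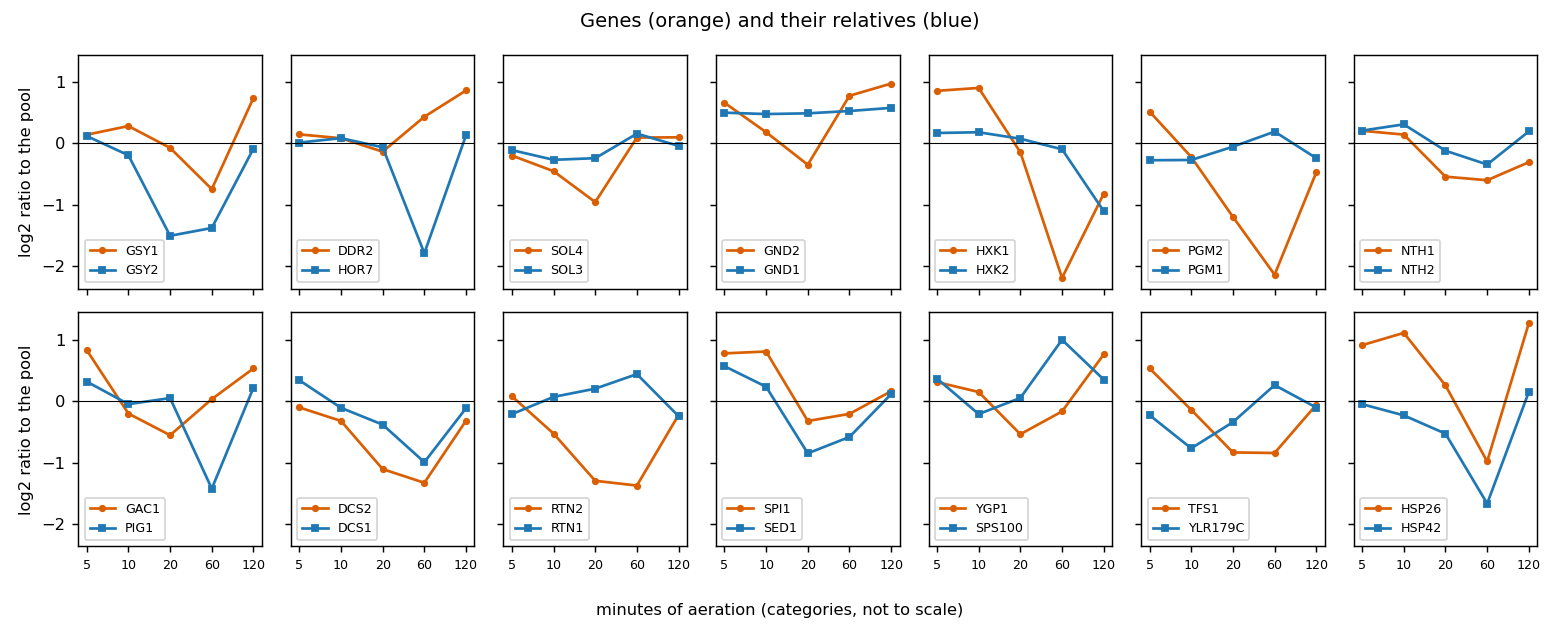
Log2 ratio to the anaerobic pool (y axis) by minutes of aeration (x axis, categories) for 14 pairs, with the described gene in orange and its relative in blue, 1 sample per point. PGM2, RTN2 and HXK1 lie below their relatives at 60 min, the differences being -2.33, -1.81 and -2.09 as deposited. After scaling to the same spread, PGM2, RTN2 and HXK1 were at -0.94, -0.62 and -0.96 at that time.

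Genes of the same pathways outside the 30 were read from lists written with earlier results known. Of 40 further Msn2/Msn4 targets, 38 had values, and their medians were 0.20, -0.09, -0.34, -0.39 and 0.11 from 5 to 120 min. At 20 min 35 of the 38 were below the pool, 5 of them at least 2-fold, against 2.5% of all genes. For the mean, 0 of 38 passed in limma, with 2 higher and 5 lower at an unadjusted p under 0.05, against 7.9% and 6.2% of all genes. CYC7, the hypoxic cytochrome c isoform, had the lowest mean of that list, at 0.53, -0.11, -1.25, -2.47 and -1.13, and GCY1, an oxidoreductase, the next, at -0.04, -0.99, -1.14, -1.09 and -0.62. GTT1, a glutathione transferase, had the highest mean, at 0.59, 0.33, -0.13, 1.31 and 0.33, followed by SSA4, an Hsp70 chaperone, at 0.97, 1.11, 0.48, -1.09 and 0.62. Of these 4, SSA4 was above the pool at 20 min.

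The 15 other reserve carbohydrate genes had medians of -0.04, -0.05, -0.16, -0.72 and 0.20. GLG1, a glycogenin that primes glycogen synthesis, had the lowest mean, at -0.24, -0.91, -1.68, -2.75 and -0.08, and at 20 and 60 min was lower than any of the 30 genes. GLC7, the catalytic subunit of type 1 protein phosphatase, was at -0.31, 0.34, 0.02, -2.74 and 0.29. GLG2, the second glycogenin, was at 1.34 at 60 min and between -0.52 and -0.02 at the other times. NTH2 had the highest mean of the list, at 0.21, 0.31, -0.12, -0.34 and 0.20. Of the 14 fitted genes of this list 0 passed for the mean in limma, and at an unadjusted p under 0.05 only GLG1 was lower (1 gene, -1.13 ± 0.37, SE; limma adjusted p = 0.223), near the 6.2% of all genes.

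MSN2 and MSN4 themselves, whose activity is known to be set by nuclear entry more than by transcript level, lay within 0.6 of the pool. MSN2 was at -0.18, -0.02, -0.21, -0.54 and -0.30, and MSN4 at 0.59, 0.06, -0.17, -0.59 and -0.19, beside -1.44 for MSN4 in the pool against itself. Among 25 genes of PKA signalling and Msn2/Msn4 control with values, the medians were -0.09, 0.05, -0.14, -0.54 and -0.03. YAK1, a kinase that acts against PKA in growth control, had the lowest mean, at -0.29, -0.70, -1.19, -0.37 and -0.03. TPK3, a catalytic subunit of PKA, had the highest, at -0.28, 0.12, 0.25, 1.81 and 0.76. TPK2, a further catalytic subunit, was at -0.28, -0.20, -0.64, -0.89 and -0.21, and SCH9, a nutrient-responsive kinase, at 0.21, 0.89, 0.57, 0.87 and -0.23. For the mean, 0 of 25 passed in limma, with 1 higher and 2 lower at an unadjusted p under 0.05, near the 7.9% and 6.2% of all genes.

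Most chaperone genes under the heat shock factor Hsf1 lay on the other side of the pool from the stress genes at 20 min. Without the 4 that were also on the list of Msn2/Msn4 targets, 17 chaperone genes had medians of 0.32, 0.52, 0.75, -0.59 and 0.22 from 5 to 120 min. At 20 min all 17 were above the pool, as were 18 of the full list of 21 (median 0.64). In that sample 28 of the 30 stress and reserve carbohydrate genes and 50.2% of all genes were below the pool. YDJ1, an Hsp40 co-chaperone, was at 1.51 and KAR2, the Hsp70 of the endoplasmic reticulum, at 1.29 at that time. The courses already differed from 5 to 10 min, when 16 of the 17 had a higher value at the later time. Of the stress and reserve carbohydrate genes 10 of 29 did, and 51.2% of all genes. After scaling these counts were 12 of 17 and 6 of 29. From 10 to 20 min 13 of the 17 chaperone genes had a higher value at the later time, against 50.5% of all genes. The 3 chaperone genes below the pool at 20 min were the shared genes HSP104, a disaggregase, HSP78, its mitochondrial relative, and HSP42, at -0.43, -0.60 and -0.53. HSP104 and HSP78 had the lowest means of the whole chaperone list, with values of -3.30 and -2.14 at 60 min, the sample of widest spread. The low mean of HSP104 rests on that sample, since it was at 0.20, 0.003 and 0.37 at 5, 10 and 120 min. At 60 min the medians of both lists were below the pool. In the pool against itself the median was 0.32 for the 17 chaperone genes and 0.14 for the 30 genes. There 12 of the 15 chaperone genes with a value were above 0, without any aeration. The difference between the lists was not tested, since each time is 1 sample.

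**Figure D5:**
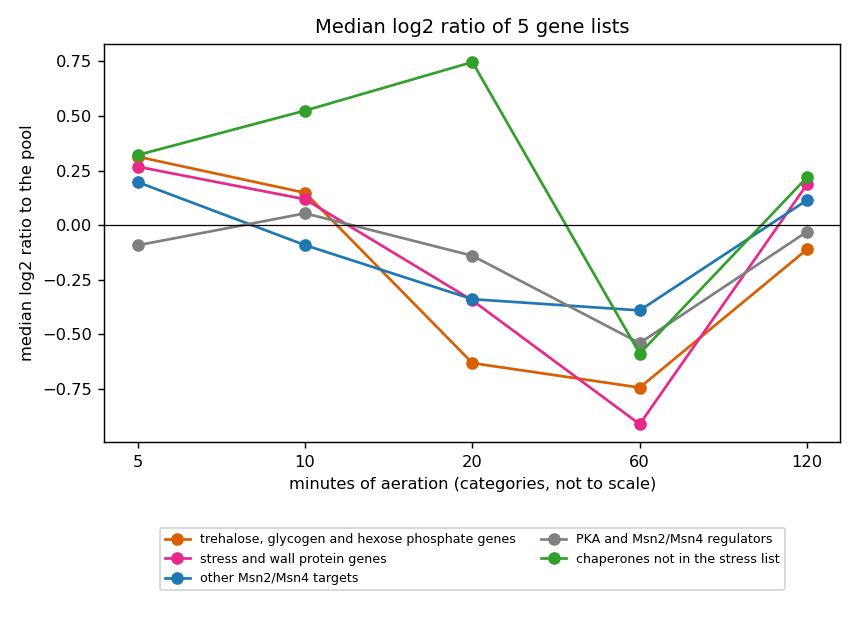
Median log2 ratio to the anaerobic pool (y axis) by minutes of aeration (x axis, categories) for 5 gene lists, 1 sample per time and no error. At 20 min the chaperone median was 0.75 and the medians of the carbohydrate genes (-0.63) and stress protein genes (-0.34) were below 0.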

How the data were processed

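Two-colour arrays compared aerated yeast RNA with an anaerobic pool in 6 samples. The deposited values are log ratios already normalized by the authors, who per the series' design text condensed each dye-swap pair into 1 sample and used a normalization whose method, like the scanner and filters, no source used here names. Natural log values as deposited were divided by 0.6931 to give log2 ratios. Of 6495 features 5754 carried 1 symbol, 0 several and 741 none; all 5754 matched the R64 reference table. Features of a gene were averaged (25 genes). No signal intensities were used, so the measurement noise behind each ratio is unknown. The number of arrays limits precision as well.

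Tests used limma 3.58.1 (lmFit, eBayes) in R 4.3.3 on the 5771 genes with all 5 aerated values, two-sided, Benjamini-Hochberg adjusted over all genes at 0.05. The code was also run on simulated data with planted changes. Noise there was independent, equal in all samples and smaller than in these data. That run therefore checks the code and not how the tests perform here. The 5 flasks served as replicates. Alternatives were leaving out each sample, centring, scaling, array weights, the log base, a minimum of 4 values, genes present in the self-hybridisation, and a 1.5-fold threshold. Genes named were all 30, their paralogs, MSN2, MSN4, and per further list the 2 highest and 2 lowest means. Members and lists were chosen with earlier results of these data known. Some listed genes were not analysed here, and LAP4 was read as APE1.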

Additional observations from a re-analysis of the deposited data

Results flagged for a closer look

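HOR7 at 60 min lay apart from the other 4 aerated samples: its gap to the nearest of them was 0.898 of the whole range, above Dixon's critical value of 0.71 for 5 samples. The value was -1.79, against -0.06 to 0.13 at the other times, and HOR7 had no value in the pool against itself. The 5 samples are different times, so the comparison treats changes over time as spread. Dixon's rule picks about 1 in 20 groups by chance, and 29 genes were examined.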

How the results depend on the processing

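With 1 sample per time, direction likely and log base inferred, only shared patterns over times can be described; the depth behind each ratio is unknown. No paired analysis was possible, since each time is 1 sample from a separate flask. For the mean, 0 of 29 genes passed under every alternative but array weights (3). For the trend 0 passed under all alternatives run. For the late minus early difference the count ranged from 0 to 13 when single samples were left out and was 0 otherwise; 13 belongs to the fit without 120 min, where the late phase is 1 sample. The median mean was -0.219 and ranged from -0.407 (without 5 min) to -0.109 (without 60 min), and was -0.0387 with array weights. The median slope of -0.126 ranged from -0.369 (without 120 min) to -0.042 (without 60 min). Of 312 alternative values each, 16 of the means and 14 of the slopes took the other sign, none of them past the threshold. Counts of genes at least 2-fold away moved as follows. With equal spread, 4 in place of 0 were higher at 5 min and 0 in place of 13 lower at 60 min. With values read as log2, 0 in place of 2 were higher at 10 and at 120 min, and 1 in place of 5 lower at 20 min and 5 in place of 13 at 60 min. Among genes also measured in the self-hybridisation, 3 in place of 5 were lower at 20 min. At 1.5-fold, 6, 4, 1 and 6 were higher at 5, 10, 60 and 120 min, and 13, 20 and 3 lower at 20, 60 and 120 min. The share of all genes was not computed for any of these alternative counts, so they cannot be read against a background. The cause of these moves was not tested.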
